A study of Mus musculus with 6 samples.

Results

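The SR proteins, the hnRNP proteins and a set of related splicing regulators were examined in the messenger RNA of mouse peritoneal macrophages. The members are the protein-coding rows of the gene table whose symbol starts with Srsf or Hnrnp, together with Rbfox2, Mbnl1, Mbnl2, Mbnl3, Celf1, Celf2, Ptbp1, Ptbp3, Tra2a and Tra2b. There were 41 members among 48709 genes: 11 Srsf genes, 2 Tra2 genes, 20 Hnrnp genes, 2 Ptbp genes, and 6 genes of the RBFOX, MBNL and CELF families. Of these, 40 had enough counts to be tested. Macrophages came from peritoneal lavage of C57BL/6 mice, 6 to 8 weeks of age and without treatment, and were sorted as F4/80+ CD11b+. One group was wild-type, and the other was Zeb1 (+/-), heterozygous for the gene of the transcription factor ZEB1 with no cell type restriction named in the labels. Each group had 3 libraries, and each library came from a pool of 2 mice, so the spread between libraries is a spread between pools.

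Nearly all transcripts of protein-coding genes are spliced, and many can be spliced in more than one way. SR proteins carry RNA recognition motifs and a tail rich in arginine-serine dipeptides. Bound to exons, they mostly promote the use of nearby splice sites. The hnRNP proteins are abundant nuclear RNA-binding proteins that coat nascent transcripts and often repress the exons they bind near. PTB, RBFOX, MBNL and CELF proteins act on particular exons according to where they bind, and several are known from programmes of alternative splicing in muscle, brain and blood cells. Many of these genes also control their own level through alternative exons that send the transcript to nonsense-mediated decay. Gene-level counts, as used here, measure how much transcript was present and not how it was spliced.

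Total counts ranged from 17859872 to 42165006 per library. Levels are given in CPM, counts scaled by library size, and 1 CPM stood for 17.9 to 42.2 counts. Fold changes are Zeb1 (+/-) relative to wild-type. Zeb1 itself averaged 6.74 ± 1.14 CPM in wild-type libraries and 3.64 ± 0.202 CPM in Zeb1 (+/-) libraries (mean ± SD, n = 3 each), with no overlap between the groups and a log2 fold change of -0.89 ± 0.16 (SE; edgeR Benjamini-Hochberg adjusted p = 0.0522). The 10 macrophage markers on the list used here were all detected, Adgre1 (F4/80) at 2186 ± 38.6 and 2618 ± 23.8 CPM and Itgam (CD11b) at 4848 ± 162 and 5061 ± 343 CPM. They summed to 46090 to 64221 CPM in wild-type and 47352 to 63660 CPM in Zeb1 (+/-) libraries. Most of each sum was Lyz2 (34210 to 52825 CPM over all libraries), so the sums say little of the other markers. Of the 10, 3 were higher (Adgre1, Gata6 and Icam2) and 1 lower (Csf1r) without overlap between the groups. Of all tested genes, 9.6% and 10.3% were. Past the threshold were 0 of the 10. The 10 mesothelial and fibroblast markers summed to at most 1.85 CPM and the 10 T and NK cell markers to at most 3.21 CPM in any library. The 11 markers of mast cells, eosinophils and neutrophils summed to at most 5.36 CPM, and Epx, Prg2 and the fibroblast marker Pdgfra had 0 counts. The 16 B cell markers summed to 163 to 315 CPM in wild-type and 103 to 134 CPM in Zeb1 (+/-) libraries, and 15 of 15 tested had a negative log2 fold change, 0 of them past the threshold. Small structural RNAs split the libraries into a low class, wild-type replicates 1 (4.14 CPM) and 2 (8.69 CPM), and a high class of 42.2 to 45.5 CPM in the other 4, so no Zeb1 (+/-) library was in the low class. This class and the mean of the B cell markers were each tried as a further term in the fit. With the class as a term, the genotype difference compares the Zeb1 (+/-) libraries with wild-type replicate 3 alone. The B cell marker sums did not overlap between the genotypes, so that term and the genotype cannot be fully told apart.

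No member of the SR, hnRNP or related families passed the test between wild-type and Zeb1 (+/-) macrophages. By the edgeR quasi-likelihood test with Benjamini-Hochberg adjustment over all 12940 tested genes, 0 of 40 members were higher and 0 lower, where 0.587% of all tested genes passed (0.155% higher and 0.433% lower). DESeq2 and limma-voom also called 0 members. At an unadjusted p under 0.05 there were 2 members, both higher (Hnrnpc and Hnrnpa3), against 14.6% of all tested genes in either direction. By DESeq2 and by limma-voom there were also 2 at that level. Over all alternatives the number ran from 0 (the structural RNA class as a term) to 6 (the B cell marker mean as a term), and it was 5 without wild-type replicate 3. Leaving out replicate 2 of either genotype gave 1. The median log2 fold change was 0.04 over the 40 members and -0.00038 over all tested genes, with 24 members above 0 and 16 below. This split became 20 and 20 with the structural RNA class as a term, and 22 and 18 without wild-type replicate 2. With the B cell marker mean as a term it was 27 and 13. Together the members took 0.697 ± 0.0308% of all counts in wild-type and 0.716 ± 0.0307% in Zeb1 (+/-) libraries (mean ± SD, n = 3 each), with overlapping ranges of 0.665 to 0.727% and 0.682 to 0.743%.

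The intervals give the sizes of change that these libraries allow in the fit with no further term. They hold no uncertainty from the structural RNA class or the B cell markers. With the B cell marker mean as a term, the log2 fold change of Hnrnpd was 0.48, above its upper limit of 0.39. That of Srsf5 was 0.31, above its upper limit of 0.22. With this term Hnrnpr (0.361 against 0.316), Hnrnpdl (0.243 against 0.223) and Srsf11 (0.120 against 0.0949) also lay above their upper limits. For 39 of the 40 members the whole 95% confidence interval of the log2 fold change lay between -0.5 and 0.5, as it did for 7522 of 8289 other tested genes with a mean of at least 10 CPM. The exception was Mbnl3, which was close to the detection limit. Each interval is for a single gene and is not adjusted for the number of genes. The median size of the log2 fold change, regardless of sign, was 0.0895 over the 39 members with at least 10 CPM and 0.0904 over the other genes at that level. The median SE was 0.0727 for those members and 0.0809 for the other genes.

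**Figure D1:**
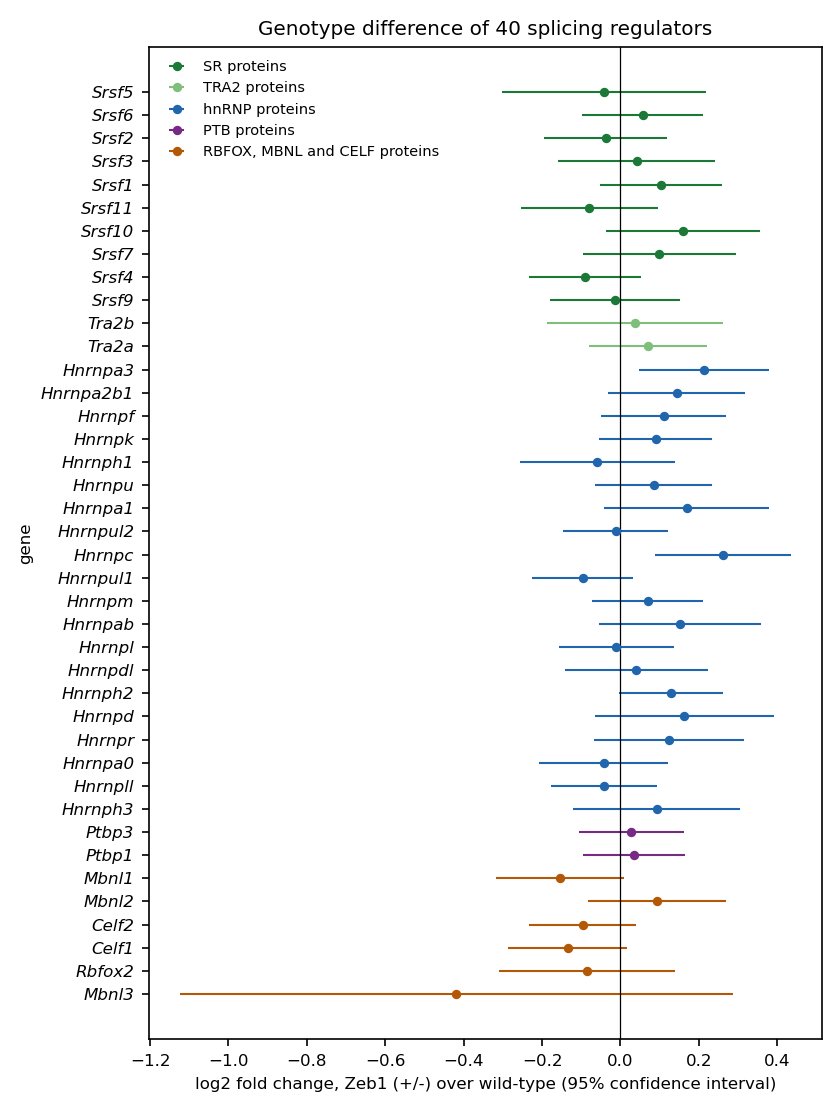
Log2 fold change of each of the 40 tested regulators (points) with its 95% confidence interval (bars), Zeb1 (+/-) over wild-type, from the edgeR fit, coloured by family. All intervals apart from that of Mbnl3 lie between -0.5 and 0.5, and those of Hnrnpc and Hnrnpa3 lie above 0 without passing after adjustment.

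Among the SR proteins, Srsf5 was the most abundant. Its level was 324, 344 and 426 CPM in the wild-type libraries, and 369, 384 and 310 CPM in the Zeb1 (+/-) libraries, here and below in the order of replicates 1, 2 and 3. The groups overlapped, with the highest value in wild-type replicate 3 and the lowest in Zeb1 (+/-) replicate 3. The log2 fold change was -0.04 ± 0.12 (SE; edgeR adjusted p = 0.895), and its sign turned to 0.08 without wild-type replicate 3 and to 0.05 without Zeb1 (+/-) replicate 3. It was -0.26 when the structural RNA class was a term and 0.31 when the B cell marker mean was, neither past the threshold. The direction of Srsf5 thus changed with the library left out and with the term added.

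Srsf10 encodes an SR-like protein that acts as a splicing repressor when dephosphorylated, and it had the smallest p of the SR proteins. Its level was 80.5, 64.9 and 69.8 CPM in the wild-type libraries, and 75.8, 81.2 and 83.5 CPM in the Zeb1 (+/-) libraries. Wild-type replicate 1 lay among the Zeb1 (+/-) values, and the other 2 wild-type libraries were lower. The log2 fold change was 0.16 ± 0.09 (SE; edgeR adjusted p = 0.43). Leaving out 1 library gave 0.09 (without wild-type replicate 2) to 0.25 (without wild-type replicate 1, adjusted p = 0.195).

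The other 8 detected SR genes had log2 fold changes from -0.09 (Srsf4) to 0.10 (Srsf1). Their wild-type and Zeb1 (+/-) values overlapped in every case. Srsf1, a founding member of the family that also acts in export and translation, was at 144 ± 9.93 and 155 ± 4.30 CPM (mean ± SD, n = 3 each). Srsf2, which activates exons and has a role in transcription elongation, was at 187 ± 8.65 and 182 ± 10.7 CPM. Srsf3, the smallest SR protein, was at 165 ± 18.3 and 170 ± 10.2 CPM. Srsf12 had 0 counts in all 6 libraries, which allows a level of up to 0.0711 to 0.168 CPM depending on the library (3 counts of the total, counting error only). The SR genes summed to 1388 ± 69.3 and 1399 ± 48.0 CPM, and their median log2 fold change was 0.01.

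ZEB1 binds E-boxes of the sequence CACCTG, which reads CAGGTG on the other strand. In RefSeq promoters of GRCm38.p6 (250 bases before to 50 after a start site), 37 of the 41 members were matched by symbol, and 5 of them (13.5%) held this motif on either strand, against 19.7% of tested protein-coding genes with an entry and 22.6% of all genes in the table. The 5 were Srsf1, Srsf2, Srsf3, Hnrnpf and Hnrnph3. In the 3 SR genes the motif begins 161 (Srsf1), 137 (Srsf2) and 147 (Srsf3) bases before the start site. They are shown because they are the SR promoters in which a letter match to the motif of the heterozygous factor occurs. Each stretch is 100 bases on the gene's own strand, 5′ to 3′, with the motif in capitals, at chr11:88047165-88047264 (plus strand), chr11:116853179-116853278 (minus strand) and chr17:29032466-29032565 (plus strand).
Srsf1: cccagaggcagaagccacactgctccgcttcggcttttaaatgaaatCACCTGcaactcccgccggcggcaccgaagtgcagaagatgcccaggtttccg
Srsf2: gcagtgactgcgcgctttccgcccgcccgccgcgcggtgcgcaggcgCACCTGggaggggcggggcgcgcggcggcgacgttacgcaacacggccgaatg
Srsf3: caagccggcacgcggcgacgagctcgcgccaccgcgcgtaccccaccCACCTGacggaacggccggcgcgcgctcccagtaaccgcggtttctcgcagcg
The log2 fold changes of the 5 genes with the motif were 0.10 (Srsf1), -0.04 (Srsf2), 0.04 (Srsf3), 0.11 (Hnrnpf) and 0.09 (Hnrnph3), each with an interval that includes 0. A match of letters is a description and not a measured binding site.

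Tra2a and Tra2b encode the transformer-2 proteins, SR-like activators of exons with GAA-rich sequences. Tra2b was at 111, 87.0 and 87.5 CPM in the wild-type libraries, and 92.0, 98.0 and 103 CPM in the Zeb1 (+/-) libraries. Tra2a was at 86.6, 76.9 and 85.8 CPM, and 88.5, 87.0 and 86.2 CPM in the same order. The groups overlapped for both, by a narrow margin for Tra2a, and wild-type replicate 2 was the lowest library for both. The log2 fold changes were 0.04 ± 0.10 for Tra2b and 0.07 ± 0.07 for Tra2a (SE; edgeR adjusted p = 0.888 and 0.668). That of Tra2a was 0.02 without wild-type replicate 2 and 0.15 when the B cell marker mean was a term. That of Tra2b ran from -0.02 (without wild-type replicate 2) to 0.16 (without wild-type replicate 1).

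**Figure D2:**
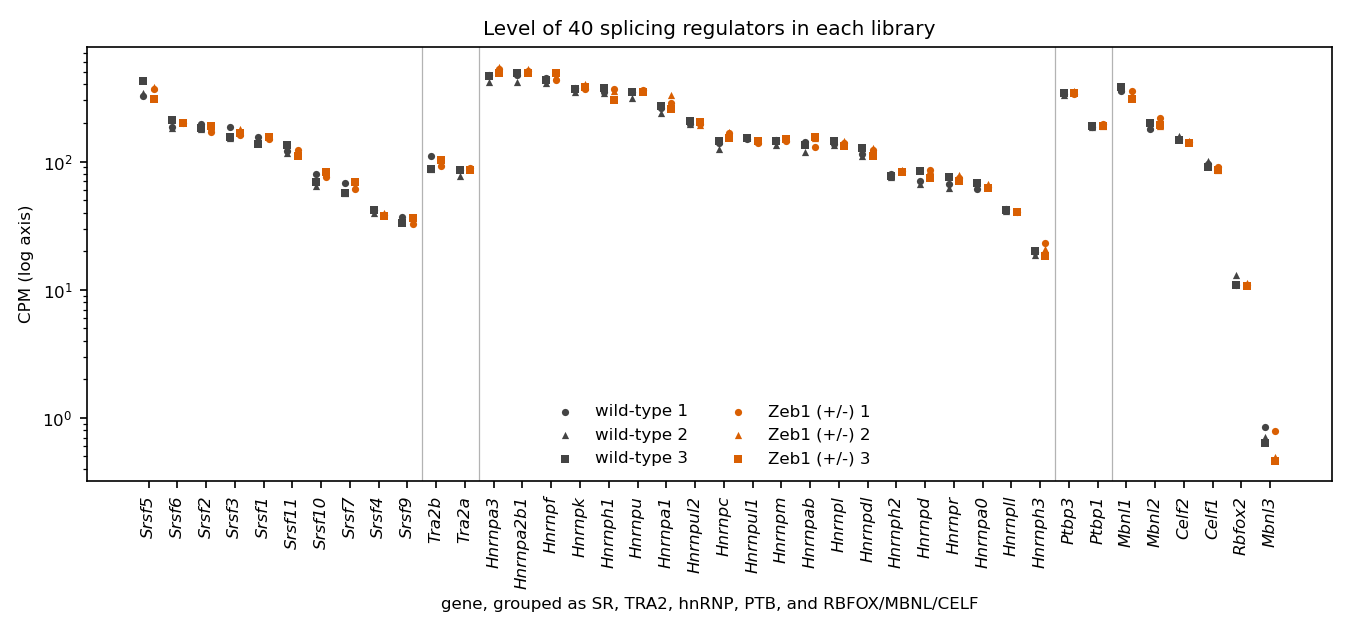
Level in CPM (log axis) of the 40 tested regulators in each of the 6 libraries, grouped by family and ordered by mean. Wild-type libraries are dark and Zeb1 (+/-) libraries orange, and marker shape gives the replicate number. The levels run from 0.457 CPM (Mbnl3) to 550 CPM (Hnrnpa3), and the genotypes overlap for all but 6 of the 40 genes.

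More hnRNP genes had log2 fold changes above 0 than below, with 0 past the test. Of 20, 14 had a positive log2 fold change and 6 a negative one, with a median of 0.09. The sums of all 20 were 4104, 3801 and 4176 CPM in the wild-type libraries and 4278, 4458 and 4169 CPM in the Zeb1 (+/-) libraries. Zeb1 (+/-) replicate 3 lay just below wild-type replicate 3, so the groups overlapped. The median was 0.06 without wild-type replicate 2, 0.04 when the structural RNA class was a term and 0.15 when the B cell marker mean was. The part of these library features in the median was not tested.

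Hnrnpc encodes the hnRNP C proteins, which bind uridine tracts and keep cryptic exons out of the transcript, and it had the smallest p of all members. Its level was 141, 125 and 145 CPM in the wild-type libraries, and 168, 171 and 154 CPM in the Zeb1 (+/-) libraries. Every Zeb1 (+/-) library was above every wild-type library. Hnrnpc had a log2 fold change of 0.26 ± 0.08 (SE; 95% confidence interval 0.09 to 0.44), and the edgeR adjusted p was 0.174. Among 15 alternatives it was lowest (0.18) when the structural RNA class was a term and highest (0.41) when the B cell marker mean was, with adjusted p from 0.0686 to 0.716.

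Hnrnpa3, a member of the A/B group that binds telomeric repeats and transcripts alike, had the highest mean CPM of the hnRNP genes over all 6 libraries, while Hnrnpa2b1 was higher in wild-type (462 against 453 CPM). It was at 472, 420 and 466 CPM in the wild-type libraries (replicates 1 to 3), and at 531, 550 and 493 CPM in the Zeb1 (+/-) libraries. The groups did not overlap, and wild-type replicate 2 was again the lowest library. Hnrnpa3 had a log2 fold change of 0.21 ± 0.07 (SE; edgeR adjusted p = 0.243), with 0.16 to 0.30 over the alternatives.

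Hnrnpa1 encodes the best studied repressor of the family, which shuttles between nucleus and cytoplasm. Its level was 264, 240 and 272 CPM in the wild-type libraries, and 284, 328 and 260 CPM in the Zeb1 (+/-) libraries. Zeb1 (+/-) replicate 2 stood above the rest, while replicate 3 fell among the wild-type values. The log2 fold change was 0.17 ± 0.09 (SE; edgeR adjusted p = 0.44) and ran from 0.08 without Zeb1 (+/-) replicate 2 to 0.25 without Zeb1 (+/-) replicate 3, with 0.31 when the B cell marker mean was a term. Hnrnpd, which encodes the AU-rich element binding protein AUF1, was at 70.3, 66.4 and 84.8 CPM in wild-type, and at 86.6, 86.3 and 74.6 CPM in the Zeb1 (+/-) libraries. Its groups overlapped, and its log2 fold change of 0.16 ± 0.10 (SE; edgeR adjusted p = 0.494) ranged widely over the alternatives. It was -0.04 when the structural RNA class was a term and 0.48 when the B cell marker mean was (adjusted p = 0.168), and leaving out 1 library gave 0.09 (without wild-type replicate 2) to 0.27 (without wild-type replicate 3).

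Hnrnpul1, which encodes a relative of hnRNP U that takes part in the response to DNA damage, was the hnRNP gene with the lowest log2 fold change. It was at 151, 155 and 152 CPM in the wild-type libraries and at 139, 144 and 144 CPM in the Zeb1 (+/-) libraries. The groups did not overlap, and the log2 fold change was -0.10 ± 0.06 (SE; edgeR adjusted p = 0.473). Of all 40 members, 4 were higher without overlap between the groups (Hnrnpa3, Hnrnpc, Hnrnph2 and Hnrnpu) and 2 lower (Hnrnpul1 and Celf2), where 9.6% and 10.3% of all tested genes were. These counts amount to 4 and 2 of 40 and are near the background.

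The remaining 15 hnRNP genes had log2 fold changes from -0.06 (Hnrnph1) to 0.15 (Hnrnpab). Hnrnpa2b1, which binds and sorts RNAs for export and packaging, was at 462 ± 38.5 and 510 ± 20.0 CPM (mean ± SD, n = 3 each). Hnrnpk, a poly(C)-binding protein with KH domains, was at 362 ± 13.8 and 385 ± 14.2 CPM. Hnrnpu, a scaffold-attachment factor that binds chromatin and RNA, was at 337 ± 19.9 and 358 ± 5.34 CPM. Hnrnpll, a regulator of Cd45 exon choice in T cells, was at 43.0, 41.1 and 41.7 CPM in wild-type and 40.3, 41.4 and 40.6 CPM in the Zeb1 (+/-) libraries. Those ranges overlapped, and the log2 fold change was -0.04.

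Over the 6 libraries, the tested genes whose log2 CPM was most like that of Hnrnpc were Zcrb1 (Pearson r = 0.994), Atl2 (0.992), 2810004N23Rik (0.991), Gmfb (0.990) and Nup107 (0.990). These are descriptions over 6 libraries, in which all genes share the same pools, depths and genotype groups, and the genes were picked from all tested genes for their likeness. Their own log2 fold changes were 0.18 (Zcrb1), 0.11 (Atl2), 0.23 (2810004N23Rik), 0.10 (Gmfb) and 0.27 (Nup107), and none passed the adjusted test.

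The polypyrimidine tract binding proteins repress exons flanked by pyrimidine-rich sequence. Their genes varied little between libraries, with a median coefficient of variation of 1.54% in wild-type and 2.18% in Zeb1 (+/-) libraries. Over all tested members it was 6.20% and 4.99%. This was not particular to the PTB genes, as Hnrnpul1 was at 1.17% and 1.91%. Ptbp1 was at 185, 187 and 190 CPM in the wild-type libraries and at 196, 190 and 190 CPM in the Zeb1 (+/-) libraries. Ptbp3, the paralog best known from blood cells, was at 334, 333 and 344 CPM and at 337, 353 and 341 CPM in the same order. The groups overlapped for both. The log2 fold changes were 0.03 ± 0.06 (SE; edgeR adjusted p = 0.818) for Ptbp1 and 0.03 ± 0.06 for Ptbp3 (adjusted p = 0.861), with 95% confidence intervals of -0.10 to 0.16 and -0.11 to 0.16. Ptbp2, the neuronal paralog, was at 27.8 ± 3.00 and 26.5 ± 3.32 CPM (mean ± SD, n = 3 each).

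The RBFOX, MBNL and CELF genes had 5 of 6 log2 fold changes below 0, none past the test, and a median of -0.12. The median was -0.05 when the structural RNA class was a term and -0.16 when the B cell marker mean was. Mbnl1, the muscleblind protein that drives adult splicing patterns, was the most abundant, at 356, 371 and 384 CPM in the wild-type libraries and at 358, 329 and 310 CPM in the Zeb1 (+/-) libraries. Zeb1 (+/-) replicate 1 lay within the wild-type range and the other 2 below it. The log2 fold change was -0.16 ± 0.07 (SE; edgeR adjusted p = 0.361), with -0.05 when the B cell marker mean was a term and -0.21 when the structural RNA class was. Celf1, which binds GU-rich elements, was at 94.9, 102 and 90.3 CPM in wild-type libraries, and at 90.7, 85.7 and 85.5 CPM in the Zeb1 (+/-) libraries. The groups overlapped by a narrow margin, and the log2 fold change was -0.13 ± 0.07 (SE; edgeR adjusted p = 0.39). It was -0.05 when the structural RNA class was a term and -0.23 when the B cell marker mean was, and -0.09 to -0.17 with 1 library left out.

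Mbnl3 was barely expressed, with 28, 20 and 12 counts in wild-type replicates 1 to 3 and 14, 21 and 15 counts in the Zeb1 (+/-) replicates. These amount to 0.841, 0.710 and 0.637 CPM and to 0.782, 0.496 and 0.457 CPM. The ranges overlapped, and the log2 fold change of -0.42 ± 0.31 (SE; edgeR adjusted p = 0.569) had a 95% confidence interval from -1.12 to 0.29. That interval holds both no change and a log2 fold change of -1. Mbnl2 was at 189 ± 9.79 and 201 ± 17.0 CPM (mean ± SD, n = 3 each). Rbfox2, a regulator that binds GCAUG, was at 11.6 ± 1.18 and 10.9 ± 0.229 CPM (log2 fold change -0.09).

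Compared per length of exon, the members differed far more from one another than between genotypes. Hnrnpf, which binds G-rich tracts, led with a mean of 147 CPM per kb of annotated exon over all libraries (range 135 to 162), above every value of the next genes. Hnrnpa3 at 90.6, Srsf5 at 90.2 and Hnrnpa1 at 87.0 CPM per kb followed, with ranges of 77.8 to 102, 77.8 to 107 and 76.1 to 104 that overlap. Hnrnpa2b1 (73.9), Srsf2 (62.3) and Hnrnph1 (59.8) came next. At the other end were Hnrnpll (3.54), Hnrnpr (3.20), Rbfox2 (1.38) and Mbnl3 (0.0748). Annotated exon length counts all isoforms of a gene at once, so a gene with long rarely used exons is read too low on this scale.

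The libraries differed among themselves within a genotype. Wild-type replicate 2 had the lowest log2 CPM of the 6 libraries for 20 of 40 members, and the lowest for 19.8% of all tested genes. Zeb1 (+/-) replicate 3 was the lowest for 11 members (14.4% of all tested genes) and Zeb1 (+/-) replicate 2 the highest for 11 (17% of all tested genes). The median deviation of the members from their mean over the 6 libraries was -0.09 on the log2 scale in wild-type replicate 2 and 0.05 in Zeb1 (+/-) replicate 2. In the other 4 libraries it lay between 0.00221 and 0.00717. Wild-type replicate 2 was also in the low class for structural RNA. So was wild-type replicate 1, which was the lowest for 3 members and had a median deviation of 0.00717. The part of the class in these values was not tested.

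**Figure D3:**
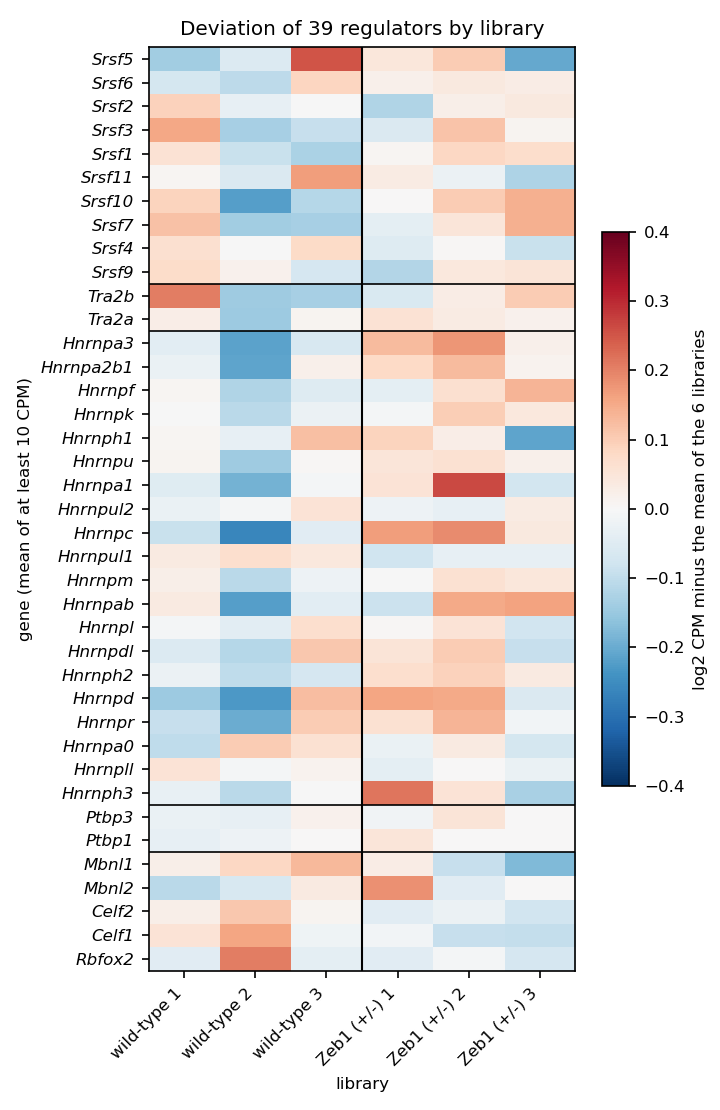
Log2 CPM of each of the 39 members with a mean of at least 10 CPM, minus its mean over the 6 libraries (colour scale), for each library (columns). Blue cells (below the mean) prevail among hnRNP genes in wild-type replicate 2, and the darkest cells are Hnrnpa1 in Zeb1 (+/-) replicate 2, Hnrnpc in wild-type replicate 2 and Srsf5 in wild-type replicate 3.

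Annotated transcript classes were not used to choose the members and are given as counts, with no test. In the GENCODE annotation of GRCm38, 24 of 41 (58.5%) have at least 1 transcript classed as a target of nonsense-mediated decay, against 29.8% of tested protein-coding genes. The count is 9 of 11 for SR genes, 2 of 2 for Tra2 genes, 10 of 20 for hnRNP genes, 2 of 2 for PTB genes and 1 of 6 for the RBFOX, MBNL and CELF genes. Transcripts with a retained intron are annotated for 75.6% of members and 59.9% of tested protein-coding genes. Members also have more annotated transcripts (a median of 9 against 5), and their counts sum over all of them.

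Some counts may be split with other genes. In 8 members at least 10% of the 50-base stretches of their transcripts also occur in transcripts of other genes. Hnrnpf (36.8%), Hnrnpa1 (28.2%) and Hnrnpa3 (27.1%) led. Each share is over all other genes together, and only the gene with the most matches is named as partner. The partners were Gm6430 for Hnrnpf, Gm10052 for Hnrnpa1 and Gm5641 for Hnrnpa3. The share of a partner alone was not computed. Over the 6 libraries the partner's own counts ranged widely. They were 27 for Gm6430 against 78464 for Hnrnpf, 294 for Gm10052 against 48148 for Hnrnpa1, and 829 for Gm5641 against 85306 for Hnrnpa3. For Hnrnpk (14.5% shared) the partner was Gm7964, which had 2451 counts against 65314. For Hnrnpm (13.5% shared) the partner was March2, which had 8914 counts against 25426. March2 also overlaps 14.7% of the exon bases of Hnrnpm on the same strand. In 4 members at least 10% of the exon bases lie under an exon on the opposite strand, with Gm12992 over 43.0% of Srsf4, Phykpl over 29.1% of Hnrnpab, Mettl23 over 15.6% of Srsf2 and 4933440N22Rik over 13.5% of Hnrnpf. The libraries were stranded, but the strand setting of the counting was not given in the sources used here.

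The other genes of the splicing pathway, taken from 7 lists, also held no gene past the threshold. Of 122 listed genes 106 were tested, and 0 were higher and 0 lower by the edgeR adjusted test, with a median log2 fold change of 0.00943. DESeq2 and limma-voom also called 0. At an unadjusted p under 0.05 there were 4 higher and 5 lower (8 in all by DESeq2 and 9 by limma-voom), against 6.3% and 8.26% of all tested genes. The total of 9 became 3 without wild-type replicate 2, 3 without Zeb1 (+/-) replicate 2, 2 with the replicate number as a block and 12 without wild-type replicate 1. Kinases that phosphorylate SR proteins and the importins that carry RNA-binding proteins into the nucleus had 11 tested genes and a median of -0.03. The smallest p there was that of the importin Tnpo2, at 49.3 ± 1.69 and 43.6 ± 2.01 CPM (mean ± SD, n = 3 each; log2 fold change -0.18, edgeR adjusted p = 0.27). The kinase genes Clk1 and Srpk1 were at 200 ± 16.8 and 199 ± 9.97 CPM and at 33.0 ± 1.84 and 32.4 ± 2.10 CPM.

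Proteins that recognise splice sites (U1 snRNP, U2AF and SF3 subunits) had 21 tested genes and a median of 0.03, with Sf3a3 at 35.1 ± 2.77 and 39.1 ± 1.41 CPM (mean ± SD, n = 3 each; edgeR adjusted p = 0.376) having the smallest p. The tri-snRNP, which brings in the catalytic snRNAs, had 13 tested genes and a median of 0.03. Its smallest p was that of Txnl4a, at 10.8 ± 1.30 and 13.3 ± 1.57 CPM (adjusted p = 0.308). SR-related and exon junction proteins had 18 tested genes and a median of 0.02. There Scaf1, at 75.5 ± 6.31 and 66.1 ± 1.88 CPM, had the smallest p (adjusted p = 0.285).

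Other splicing regulators had 30 tested genes and a median of 0.04. Pspc1, a paraspeckle protein, had the smallest p of this list, at 17.3 ± 0.581 and 21.2 ± 1.62 CPM (mean ± SD, n = 3 each; log2 fold change 0.29, edgeR adjusted p = 0.159). Genes of nonsense-mediated decay had 10 tested members and a median of -0.10. Of these, 9 had a negative log2 fold change, where 6486 of 12940 tested genes did. None of the 10 passed the adjusted test. Smg6, the endonuclease of the pathway, had the smallest p, at 39.3 ± 3.52 and 34.8 ± 1.68 CPM (adjusted p = 0.359).

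Of 18 splicing factors known for expression in brain, muscle or epithelium, 3 had enough counts to be tested, and 8 had 0 counts in all libraries. Esrp1, an epithelial splicing regulator, was among those at 0, and its paralog Esrp2 had 2 counts over the 6 libraries. Celf4 was at 1.11, 1.10 and 1.65 CPM in the wild-type libraries and at 0.614, 0.709 and 0.640 CPM in the Zeb1 (+/-) libraries. The groups did not overlap, and the log2 fold change was -0.93 ± 0.27 (SE; edgeR adjusted p = 0.172). Celf4 lies on chromosome 18 from 25477632 to 25754157, and Zeb1 on the same chromosome from 5591860 to 5775467 (GRCm38). Whether the shared chromosome has a part in the Celf4 difference was not tested.

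**Figure D4:**
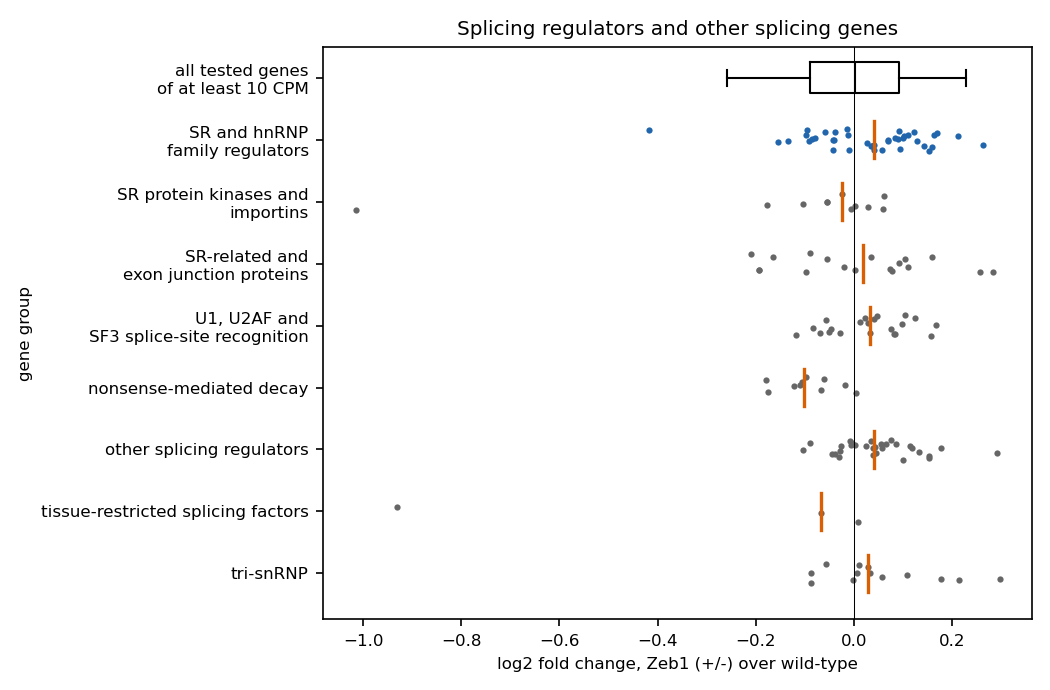
Log2 fold change (Zeb1 (+/-) over wild-type) of the tested genes of each group (points, spread vertically for legibility) with the group's median (orange bar). The box gives the quartiles and the 5th to 95th percentile range of all tested genes with a mean of at least 10 CPM. Group medians lie between -0.10 and 0.04, and the points far to the left are the low-count genes Srpk3, Celf4 and Mbnl3.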

How the data were processed

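The authors deposited estimated counts per gene, 1 column per library, made from their reads with the tools that the submitters' processing notes name. These notes name STAR, RSEM and edgeR without versions or roles, and the build GRCm38. All values were whole numbers. Per the labels' protocols, the kit was TruSeq Stranded mRNA. Columns were mapped by the identifier in each sample's description, and 0 were left unmapped.

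Genes were kept by filterByExpr (minimum count 10, minimum total 15), libraries were scaled by TMM, and the genotypes were compared by edgeR's quasi-likelihood test (version 4.0.16, R 4.3.3) over 12940 genes (Benjamini-Hochberg threshold 0.05), with all 6 libraries and no covariate. The SE is the log2 fold change divided by the square root of F. CPM uses TMM-scaled sizes, and structural RNA the raw totals. The model was tested on simulated data, with set changes larger than the estimate for any member. Those data held no difference between libraries other than genotype and library size. That test thus does not bear on changes as small as those of the members. DESeq2 1.42.0 and limma 3.58.1 (voom) were among 15 alternatives. Intervals cover the spread between pools, which nothing in the labels ties to separate sorts. Coordinates, exon lengths and transcript classes are from GENCODE M21 (41 members matched by identifier, 31 of them also by its version; the release used for the counting is not given in the sources used here), promoters from RefSeq.

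Named members are, by family, the most abundant and that of smallest p, plus the 4 highest and 4 lowest log2 fold changes. From each pathway list comes any gene past the threshold, else that of smallest p. Other genes are examples chosen after their values were seen. Members and lists were chosen with earlier results of these data known.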

Additional observations from a re-analysis of the deposited data

How the results depend on the processing

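In all 15 alternatives 0 members were higher and 0 lower. DESeq2 gave no adjusted p for Mbnl3, and the filter of at least 1 CPM in 3 libraries left it out. The counts over all tested genes moved more. In the main fit 20 were higher and 56 lower. There were 207 higher and 315 lower with no low-count filter, 109 and 242 by DESeq2, 4 and 27 when the structural RNA class was a term, and 4 and 0 with the B cell marker mean as a covariate. With 1 library left out the counts ran from 4 to 36 higher and from 1 to 91 lower, the lowest without wild-type replicate 2 and the highest without Zeb1 (+/-) replicate 3. With the replicate number as a replicate block 6 were higher and 9 lower, and 0 members. Nothing in the labels says that the numbers pair the libraries. Deviations of same-numbered libraries from their group means correlated at -0.25, -0.03 and -0.17 across genes. Those of differently numbered libraries correlated at -0.09 to 0.27. The deviations sum to 0 within each small group, so these values cannot decide whether the libraries were paired.

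The following changes of sign are those of the named members. Other members changed sign as well, among them Hnrnpl, Hnrnpul2 and Srsf9, each with the main sign in 11 of 15 alternatives. The cause of these changes was not tested, and none of the values passed. Hnrnpd was at -0.0394 and Ptbp3 at -0.0023 when the structural RNA class was a term. That fit sets wild-type replicate 3 alone against the Zeb1 (+/-) libraries. Srsf5 was at 0.31 and Tra2b at -0.12 with the B cell marker mean. With 1 library left out, Tra2b ran from -0.0226 (without wild-type replicate 2) to 0.164 and was also below 0 without wild-type replicate 3, and Srsf5 ran from -0.118 to 0.0849 (without wild-type replicate 3) and was also above 0 without Zeb1 (+/-) replicate 3. The median over the members was 0.09 with the B cell marker mean and 0.00576 with the structural RNA class. Low counts were most marked for Srsf12 (0 counts) and Mbnl3 (12 to 28 counts per library).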
